A study of Homo sapiens with 2 samples.

Results

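H3K27ac peaks were examined at 8 genes of the NOTCH pathway in LOUCY: the receptor genes NOTCH1, NOTCH2 and NOTCH3 and the target genes HES1, HES4, DTX1, NRARP and TRIB2. A peak belonged to a gene if it overlapped the gene body, given in hg19 to the nearest kb, or the 20 kb on either side. By this rule 29 of the 52203 peaks of the deposited list were taken, over 646 kb of sequence. LOUCY is an established human cell line of T-cell acute lymphoblastic leukaemia (T-ALL), often used to study early, immature forms of that leukaemia. It was grown in culture without a stated treatment or genetic change. The series held 1 ChIP library for acetylated lysine 27 of histone H3, with 54357332 tags kept by the peak caller, and 1 library of input DNA, with 71932640. With 1 library of each kind there was no replicate, so every value describes these libraries and nothing was tested across samples.

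NOTCH receptors are membrane proteins that are cut when a ligand on a neighbouring cell binds them. The freed intracellular part enters the nucleus and joins the DNA-binding protein RBPJ and a MAML coactivator at target genes. In the thymus NOTCH1 signalling commits progenitors to the T-cell fate, and activating NOTCH1 mutations are frequent in T-ALL. H3K27ac marks promoters and enhancers in use. A peak therefore shows acetylated chromatin near a gene, and is no measure of its RNA or of NOTCH activity.

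RBPJ binds DNA at sites with the core TGGGAA, so the 250 bases upstream of the start of each target gene were read from RefSeq (GRCh38.p14). A window was at hand for 7 of the 8 genes; DTX1 was not among them. Matches to TGGGAA on either strand stood in 2 of the 7 windows, those of HES1 and HES4. The same core was present in 20.8% of 35116 RefSeq promoter windows of that length, and a pair of matches in 2.90%. The stricter form GTGGGAA, which contains the core, was found in HES1 and HES4 too and in 5.43% of all windows. The 3 sequences below show both of these windows and that of NRARP, a target gene with no match and no peak at its start. Of the 7 genes with a window, HES1 and HES4 had both a match and a peak at the 5′ end. TRIB2, NOTCH1 and NOTCH2 had such a peak and no match, and NOTCH3 and NRARP had neither. Whether match and peak are linked was not tested. The 3 sequences run 5′ to 3′ along the gene and end at the base before the RefSeq start, with matches to either form in capitals. Their coordinates are of GRCh38.p14 and were not placed on hg19.
HES1 (chr3:194135898-194136147, plus strand): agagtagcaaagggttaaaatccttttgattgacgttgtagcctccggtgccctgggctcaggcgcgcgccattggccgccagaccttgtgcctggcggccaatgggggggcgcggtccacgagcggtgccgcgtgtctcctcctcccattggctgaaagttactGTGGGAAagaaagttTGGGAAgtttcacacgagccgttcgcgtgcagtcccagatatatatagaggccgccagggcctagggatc
HES4 (chr1:1000098-1000347, minus strand): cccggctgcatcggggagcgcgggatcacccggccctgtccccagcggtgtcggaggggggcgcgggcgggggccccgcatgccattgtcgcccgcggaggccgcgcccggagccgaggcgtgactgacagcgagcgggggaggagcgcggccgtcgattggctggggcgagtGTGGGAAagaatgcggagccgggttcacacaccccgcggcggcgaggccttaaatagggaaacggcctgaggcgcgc
NRARP (chr9:137302272-137302521, minus strand): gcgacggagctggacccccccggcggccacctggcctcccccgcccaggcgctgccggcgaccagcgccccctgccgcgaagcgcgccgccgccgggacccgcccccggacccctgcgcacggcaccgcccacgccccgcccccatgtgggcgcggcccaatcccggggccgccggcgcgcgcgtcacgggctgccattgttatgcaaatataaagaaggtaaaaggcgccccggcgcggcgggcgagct
In HES1 the capitals mark bases -85 to -79 and -70 to -65, counted back from the start, and both matches lay on the same strand with their first core bases 14 bases apart. In HES4 they mark bases -77 to -71. A match is a description of the letters and does not show binding.

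The acetylated sites were unevenly spread over the 8 genes. NOTCH2 had 15 peaks, NOTCH1 had 4, HES4 and TRIB2 had 3 each, HES1 had 2, NOTCH3 and NRARP had 1 each, and DTX1 had none. At least 1 peak was thus found at 7 of 8 genes (87.5%), against 84.8% of 289 protein-coding genes with hg19 positions treated by the same rule. A peak within 1 kb of the 5′ end of the gene was found at 5 of 8 genes (62.5%), against 61.2% of the same gene set. Both shares were near this background. All 5 of the peaks at 5′ ends had a fold enrichment over input of 6 or more, as had 72.3% of the 177 such peaks of the gene set. Counted over all genes, this was 5 of 8 (62.5%) against 44.3%. For 25 of the 289 genes RefSeq gives a gene more than 2 times as long, so the 5′ end used may be an inner point. Whether this lowers the shares of the gene set was not tested. The 5 genes were NOTCH1, NOTCH2, HES1, HES4 and TRIB2, and the genes without a peak at the 5′ end were NOTCH3, DTX1 and NRARP.

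**Figure D1:**
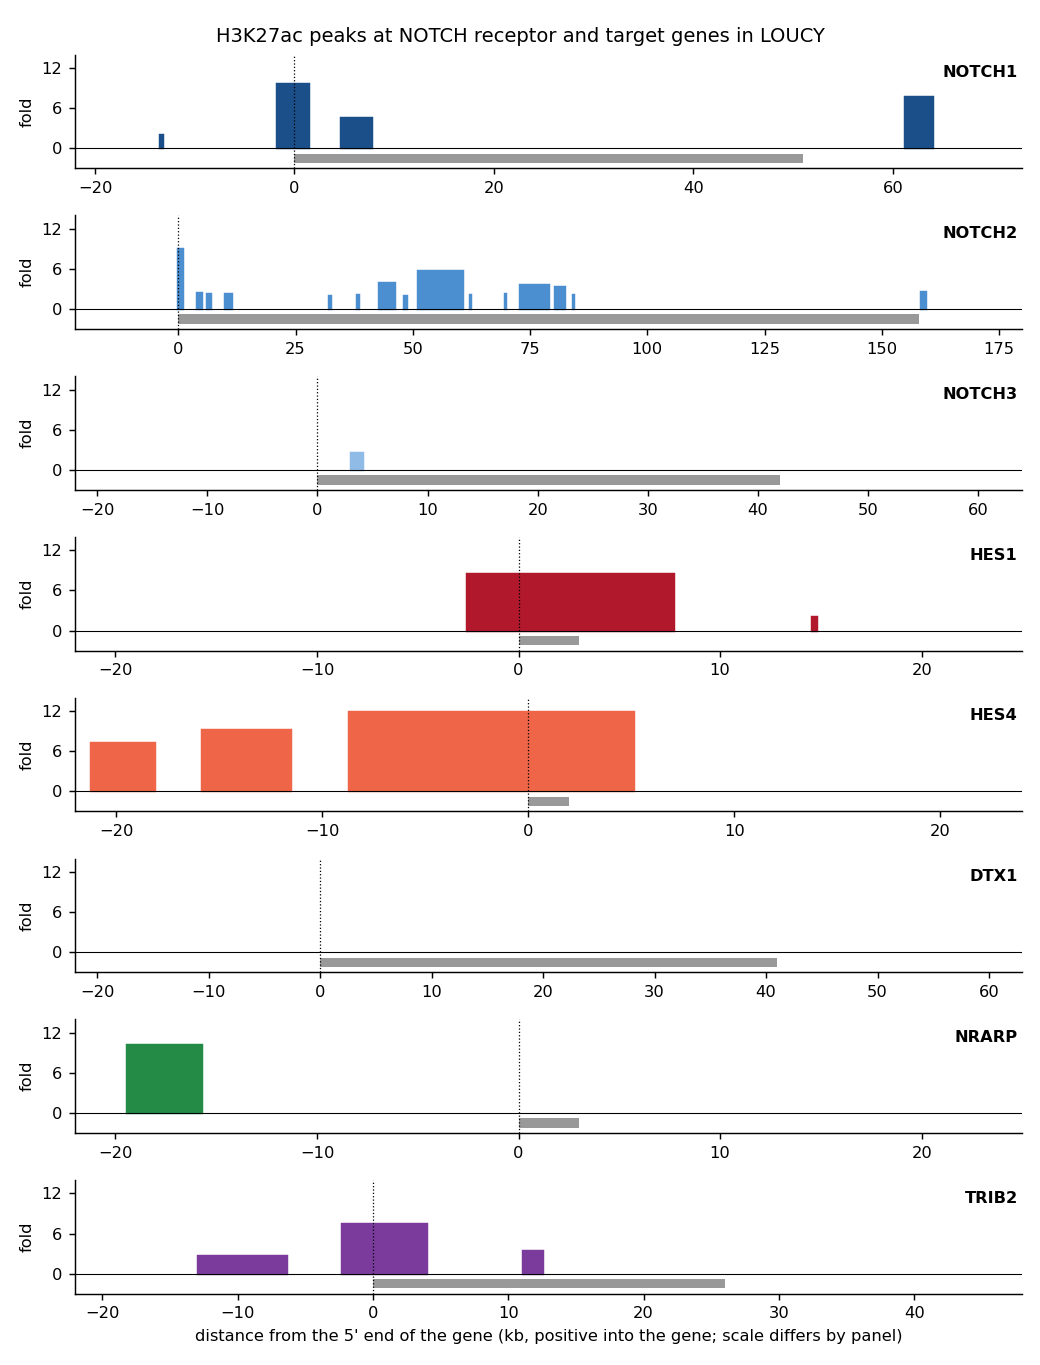
Each panel shows 1 gene, with distance from its 5′ end in kb on the horizontal axis (positive into the gene) and fold enrichment over input on the vertical axis. Coloured blocks are peaks drawn to width and fold, grey bars are gene bodies, and the dotted line is the 5′ end. Wide blocks lie over HES1 and HES4, many small ones inside NOTCH2, and none at DTX1.

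NOTCH1, the receptor most often mutated in T-ALL, carried its strongest peak over the 5′ end. This peak (chr9:139438531-139441888, hg19) was 3358 bp wide, had a fold of 9.79 and ranked 2989 of 52203 by fold. It reached 1.89 kb upstream and 1.47 kb into the gene. The peak next to it inside the gene (139432267 to 139435422) began 4.58 kb from the 5′ end and had a fold of 4.72. Together they covered 9.07% of the gene body of 51 kb, and no other peak was called inside it. In the flanks, a peak with a fold of 7.88 lay beyond the 3′ end at 10.1 kb from it, on the side of SEC16A, the neighbouring gene in RefSeq order. A narrow one of 365 bp lay 13.2 kb upstream with a fold of 2.15 and a -log10 q of 1.02, close to the lowest of the list (1.01).

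NOTCH2, a receptor with a related structure, had peaks called at its 5′ end and at sites across the 5′ part of its body. The peak at the 5′ end (chr1:120610915-120612346) had a fold of 9.10, rank 4102, and was the narrowest of the 5 peaks at 5′ ends, at 1432 bp. Deeper in the gene, 10 peaks lay within a stretch of 52.4 kb when peaks were joined across gaps no longer than the default of the super-enhancer caller ROSE (120527668 to 120580105). The widest of them (120551315 to 120561025) spanned 9711 bp with a fold of 5.90, and began 51.0 kb from the 5′ end. In the same stretch lay peaks with folds of 4.07 (3549 bp), 3.81 (6501 bp) and 3.40 (2307 bp). The other 9 body peaks were weak, with folds of 2.15 to 2.57 and widths of 223 to 1667 bp.

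The 73.7 kb of NOTCH2 nearest the 3′ end held no peak, and the flank peak lay just beyond that end with a fold of 2.73. Of the 289 genes, 1 had more peaks than NOTCH2 (SH3KBP1 with 24, named after its value was seen). The NOTCH2 peaks made up 51.7% of the 29. The number rested largely on weak calls, since 4 of the 15 kept a -log10 q of at least 10. NOTCH2 has partial copies on the same chromosome (the NOTCH2NL genes), and the handling of reads that fit several places is not stated in any source used here. Whether reads from these copies add to the peaks called at NOTCH2 was not tested.

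NOTCH3, a receptor that is also a NOTCH target in T-ALL, had a single weak peak. It lay 2.97 to 4.14 kb inside the gene (chr19:15307863-15309032), was 1170 bp wide and had a fold of 2.73, rank 31312, with a -log10 q of 2.57. No peak was called within 1 kb of the 5′ end. The surrounding band 19p13.12 was rich in the mark, with 16.2% of its sequence inside peaks against 1.43% of the NOTCH3 window. The 3 receptor genes thus fell into an order of 9.79, 9.10 and 2.73 by highest fold, of which the first pair lie close together and have no replicate to separate them.

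HES1, a helix-loop-helix repressor and the classic direct target of NOTCH, lay wholly inside 1 broad peak. That peak (chr3:193851412-193861705) spanned 10294 bp, which ranked 2141 by width. Its fold was 8.63 and ranked 5047. It began 2.59 kb upstream of the 5′ end and ended 7.71 kb downstream of it, well past the gene body of 3 kb. A further peak of 291 bp, 14.5 kb downstream of the 5′ end, had a fold of 2.16 and a -log10 q of 1.08. Acetylation at HES1 was thus a single block, and the upstream window with the pair of RBPJ cores belongs to the end of the gene that the block covers.

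HES4, a related repressor, had the highest fold and the widest peak of the 8 genes. Its peak (chr1:930853-944747) spanned 13895 bp (rank 1125 by width), had a fold of 12.1 (rank 924) and also covered the whole gene. It reached 8.75 kb upstream and 5.15 kb downstream of the 5′ end. Both flank peaks of HES4 were strong and lay upstream, on the side of ISG15, an interferon-induced gene. The nearer one (947502 to 951901) had a fold of 9.34 and the farther one (954107 to 957262) a fold of 7.45. Of the 289 genes, 8 had a higher fold at the 5′ end than HES4 and 5 a wider peak there. Of 23 genes of 5 kb or less in the set, a length chosen after the values had been seen, 4 lay inside 1 peak and 12 had no peak in the body. The 4 were GAPDH and the histone genes HIST1H4B, HIST1H4C and HIST1H4H. Many of the 23 had no peak at the 5′ end, unlike HES1 and HES4, so this is no like comparison.

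TRIB2, a pseudokinase of the Tribbles family that NOTCH can induce in T-cell leukaemia, had a broad peak over its 5′ end. That peak (chr2:12854647-12861004) spanned 6358 bp, and its fold of 7.56 ranked 7641. It was flanked by a wide, shallow peak 6.34 kb upstream (6679 bp, fold 2.87) and by a narrower one 11.1 kb into the gene (1533 bp, fold 3.61). The shallow peak was wider than 91.1% of all peaks, yet its fold exceeded that of 44.9%. TRIB2 therefore showed acetylation at the start of the gene with weaker sites on both sides.

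NRARP and DTX1, which are NOTCH targets that feed back on the pathway, had no peak in the gene. NRARP codes for a small ankyrin-repeat protein that binds the NOTCH and RBPJ complex and dampens it. Its window held 1 peak (chr9:140212729-140216468, 3740 bp), which was strong, with a fold of 10.3 and rank 2371, but lay 15.7 kb upstream of the 5′ end, on the side of the neighbouring gene EXD3. On the other side the nearest peak was 30.9 kb from the gene body, so that NRARP sat in a stretch of 49.6 kb without a peak. The upstream window of NRARP had a G and C content of 78.4%, against 72.8 to 76.8% for NOTCH1, NOTCH2, HES4 and TRIB2, which had peaks at their 5′ ends. HES1, with such a peak too, had 59.2%, and NOTCH3, without one, had 78%. Whether base content bears on the peaks was not tested.

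DTX1, a ubiquitin ligase of the Deltex family, was the one gene of the 8 with an empty window. The nearest peaks were 68.9 kb from the 5′ end of the body (fold 2.54) and 54.9 kb beyond its 3′ end (fold 2.91), with widths of 287 and 272 bp, and the stretch between them measured 165 kb. In the gene set 44 of 289 genes had an empty window as well. No peak means that the caller's threshold was not reached at this depth, and acetylation below it was not measured.

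**Figure D2:**
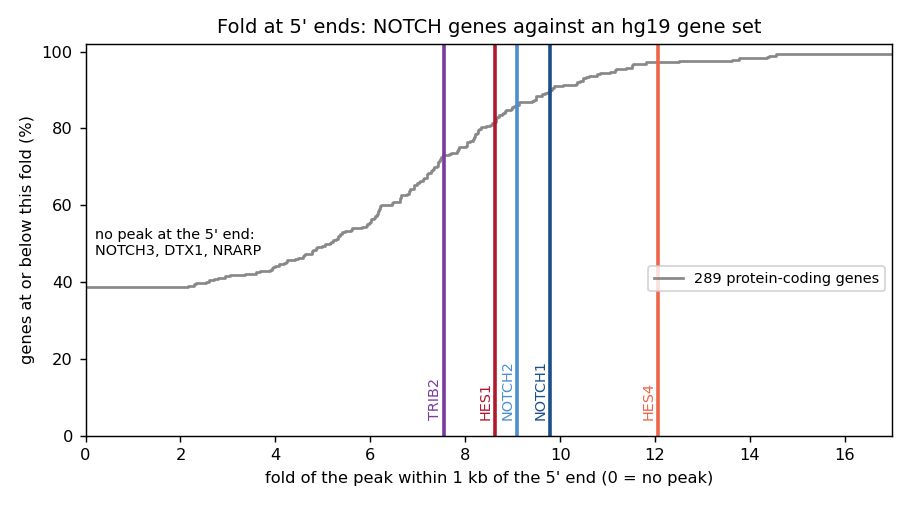
The grey curve gives the share of 289 protein-coding genes (vertical axis, %) whose peak within 1 kb of the 5′ end had at most the fold on the horizontal axis, with genes that had no such peak at 0. Vertical lines mark the 5 NOTCH genes with such a peak, from TRIB2 at 7.56 to HES4 at 12.1.

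Set side by side, the peaks at 5′ ends differed more in width than in fold. The folds ran from 7.56 (TRIB2) through 8.63 (HES1), 9.10 (NOTCH2) and 9.79 (NOTCH1) to 12.1 (HES4), a range of 1.60 times. The widths ran from 1432 bp (NOTCH2) through 3358 bp (NOTCH1), 6358 bp (TRIB2) and 10294 bp (HES1) to 13895 bp (HES4), a range of 9.70 times. Peaks at 5′ ends in the gene set also differed more in width (211 to 41318 bp) than in fold (2.16 to 18.1). The pattern is thus not particular to these 5 genes. In that set the median fold at 5′ ends with a peak was 7.33 (interquartile range 5.83 to 8.85) and the median width 2894 bp. All 5 folds lay above that median, and 4 of the 5 widths did, NOTCH2 being the exception. Among these 5, the 3 targets had the widest peaks and the 2 receptors the narrowest. The targets NRARP and DTX1 and the receptor NOTCH3 had no such peak and are not in this comparison.

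Beyond the 5′ ends, peaks with a fold of at least 6 were found in the flanks and not in the bodies, though the widest NOTCH2 peak came close at 5.90. NOTCH2 held 14 of the 21 body peaks, its 5′ peak included, so this rests largely on that gene. The same share for peaks away from 5′ ends over the whole list was not worked out. Of the 24 peaks beyond the 5′ ends, 4 had a fold of at least 6, and all 4 lay in a flank: 2 upstream of HES4, 1 upstream of NRARP and 1 downstream of NOTCH1. Each of these lay on the side of a near neighbour (ISG15, EXD3 and SEC16A), and which gene they serve was not tested. Over all 29 peaks, 9 had a fold of at least 6 (31.0%, 95% Wilson interval 17.3 to 49.2, counting error only), against 23.2% of all peaks of the list. The interval takes peaks as independent, though many are neighbours in the NOTCH2 window. A fold of at least 10 was reached by 2 of 29, against 5.21% of all peaks. The median fold was 3.40 and the median width 1667 bp, against 3.08 and 1670 bp over the whole list. The share was set largely by NOTCH2: without its window, 8 of 14 peaks (57.1%) had a fold of at least 6 and the median fold was 7.50.

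**Figure D3:**
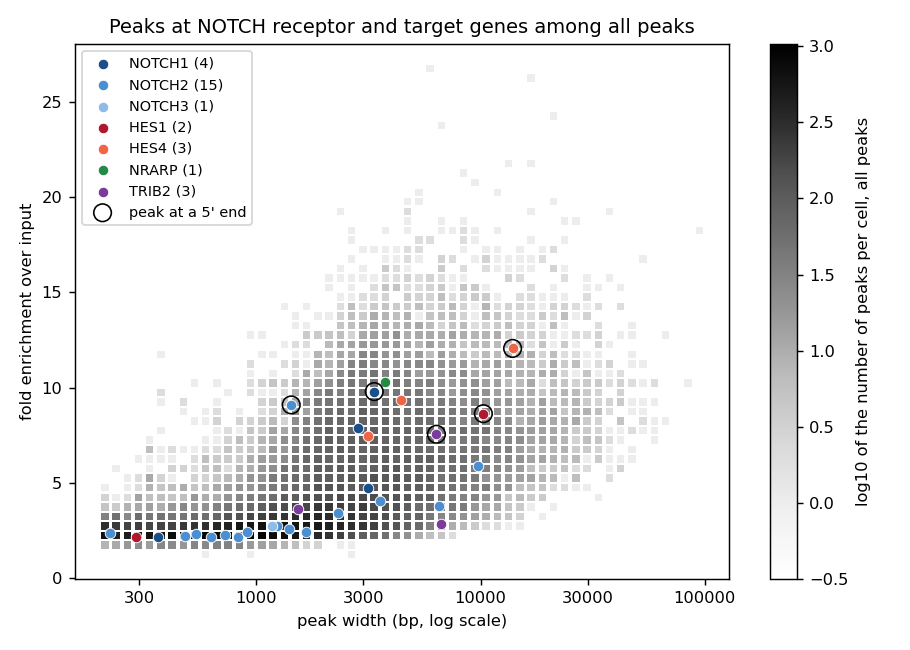
Peak width in bp (horizontal, log scale) is plotted against fold enrichment over input (vertical). Grey squares are shaded by the number of all 52203 peaks, coloured dots are the 29 peaks by gene, and rings mark the 5 peaks at 5′ ends, which all lie above a fold of 7 while most NOTCH2 dots lie in the dense region below 3.

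The windows also differed in how much of their sequence was acetylated. HES4 came first with 48.1% of its window inside peaks, followed by HES1 (24.6%), TRIB2 (22.1%) and NOTCH2 (16.2%). The HES4 share includes both flank peaks on the side of ISG15, and which gene these serve was not tested. NOTCH1 (10.7%) and NRARP (8.70%) were lower, NOTCH3 had 1.43% and DTX1 0. The genome as a whole stood at 4.90% and the median window of the gene set at 6.63% (upper quartile 13.5). Windows around genes of different lengths are not alike, since a short gene leaves more of the window to its start and flanks. Against their own bands, HES4 (8.94% for 1p36.33), TRIB2 (7.60% for 2p24.3) and HES1 (11.3% for 3q29) stood well above. Bands were assigned by the 5′ end alone. NOTCH2 was thus set against 1p11.2 (3.93%), which need not hold the rest of its long window, so that comparison is left aside. NOTCH1 and NRARP were nearer to the 8.32% of 9q34.3, their common band. DTX1 was below its band (3.72% for 12q24.13), as was NOTCH3.

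**Figure D4:**
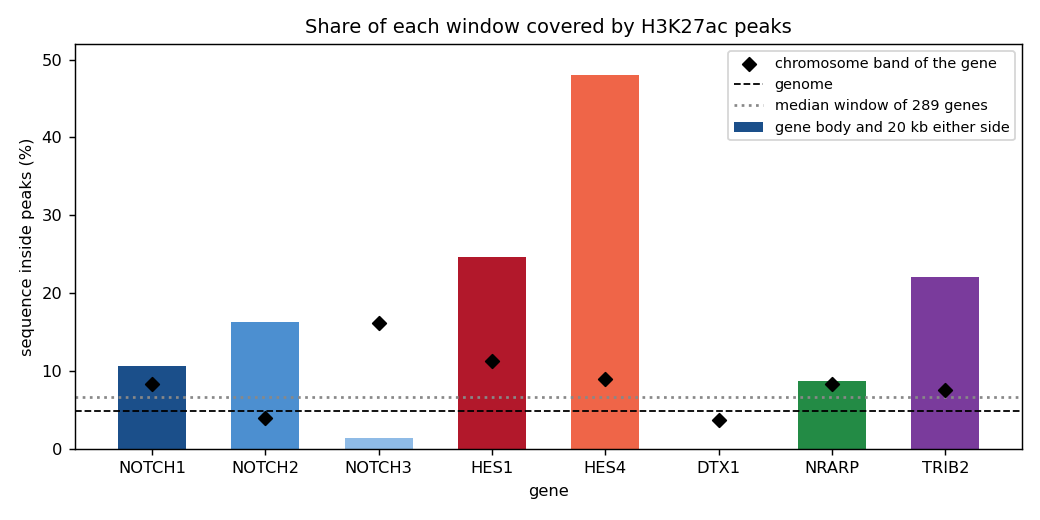
Bars give the percentage of each gene's window (gene body and 20 kb either side) inside H3K27ac peaks. Diamonds give the same for the chromosome band of its 5′ end, which need not hold the whole NOTCH2 window. The dashed line is the genome and the dotted line the median of 289 gene windows. HES4 has the highest bar at 48.1%, and DTX1 has none.

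With all peaks of the list joined across such gaps, 25510 domains resulted. Each domain was ranked by its peaks' width multiplied by fold, added up. The HES4 domain (36.5 kb, 4 peaks, of which 1 lies outside the window) ranked 668 and was the only one at these genes among the 1421 large domains, which are those above the point where the rank curve has a slope of 1 on the unit square. Apart from the peak over HES4, the peaks of the HES4 domain lie upstream, on the side of ISG15. Which gene they serve was not tested. The inner NOTCH2 domain came next at rank 1830, then HES1 at 2395, TRIB2 at 3030 and NOTCH1 at 4718. The order turned when domains were ranked by summed peak width, which put NOTCH2 at 1000 and HES4 at 1232, and TRIB2 fell to 4663 when a -log10 q of 10 was required. The NRARP flank peak ranked 5986 on its own, and NOTCH3 ranked 19701. By this measure the peaks called inside NOTCH2 outranked those at its start (rank 9204), although their highest fold was lower. Whether reads from the partial copies of NOTCH2 add to this rank was not tested.

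Because fold is relative to local input, the input level implied by each peak's fold and p-value was worked out as well. Its median was 6.67 at the 29 peaks and 6.34 over all peaks. Among the peaks at 5′ ends it ran from 5.32 (NOTCH1) to 8.03 (HES1), and the implied ChIP pileup from 60.9 tags (NOTCH1) to 83.8 (HES4). NOTCH1 was thus second of the 5 by fold but last by implied pileup, at the lowest implied input level. Inside NOTCH2 the level reached 17.2 at a weak peak and 9.46 at the widest one. These levels are approximate, because how the caller summed a broad peak is not given.

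The edges of the rule left some peaks just outside. The nearest were a peak 1.70 kb beyond the 5′ flank of NOTCH3 (fold 2.52) and one 1.96 kb beyond the 3′ flank of HES4 (fold 2.58). Just inside were the HES4 flank peak of fold 7.45, which crosses the window's edge, and the NRARP flank peak. Of 37 further genes of the pathway that were listed (ligands, proteases, cofactors, inhibitors and other targets), 1 had an hg19 position at hand, and the others were not analysed here. That gene, MIB2, a ubiquitin ligase acting on NOTCH ligands, had a peak over its 5′ end (fold 8.77, 2640 bp) and one at its 3′ end (fold 10.9, 3445 bp). The T, B and myeloid marker genes that could check the cell label had no such position. The strongest peak of the band 7q34, which holds the TCR beta locus, had a fold of 26.4 and ranked 2. It was not placed at that locus, so it is no check of the cell label.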

How the data were processed

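H3K27ac ChIP and input DNA from LOUCY were sequenced once each. Bowtie2, MACS2 and hg19 are named in the submitters' processing notes. Per the file headers, the authors called broad peaks with MACS 2.1.0.20140616 against input, with 84 bp tags, a fragment length of 204 bp and 1 tag kept per position, which caps the height of strong peaks. How Bowtie2 was set is not stated there. The deposited fold is a ratio of ChIP pileup to local input, and each peak has a deposited -log10 q-value and p-value from the same caller. The deposited pileup was not used, since all values were below 0.

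Gene bodies came from the rule that defined the genes, in hg19. Their lengths differed from RefSeq (GRCh38.p14) by at most 0.866 kb. Strands came from RefSeq, except that of DTX1, which is textbook knowledge. No hg19 exons were used, so sites were not called exonic or intronic. The comparison set was the 390 genes of the example table in pyranges 0.1.4, whose coordinates and haplotype names are those of hg19, of which 376 matched a RefSeq symbol on standard chromosomes. Of the protein-coding ones, 2 whose rows joined haplotype and chromosome positions (over 10 times the RefSeq length) were left out and 289 used; 25 of these have a RefSeq gene more than 2 times as long. How it was drawn is not known. Bands came from circlize 0.4.16. The implied input level is the Poisson mean at which fold, with 1 added to both levels, has the peak's p-value, and its lowest value, 4.11, equalled the caller's background. Overlap, joining and input scripts were tested on simulated data. Calculations used Python 3.11.15, pandas 2.3.3 and scipy 1.17.1. The genes named are the 8 members, with the peak nearest the 5′ end, the strongest and the widest of each. Genes, lists and thresholds were chosen with earlier results of these data known. Alternatives were stricter thresholds, other flanks, overlaps and 5′ windows, and other ways to join and rank peaks.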

Additional observations from a re-analysis of the deposited data

How the results depend on the processing

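Of 67 alternative values, 47 kept the main value within the margin set for it (1.5 times for a count or rank, the Wilson interval for the share of strong peaks, no change for the other values) and 20 moved. Some values could not move, such as the highest fold with no flank where the strongest peak lies over the gene. The tally is therefore no measure of robustness. Leaving out the NOTCH2 window was added after seeing the data. With the main settings, peaks at the 8 genes numbered 29. Requiring a -log10 q of 5 left 15, requiring 10 left 13, and requiring a fold of 4 left 12, since weak peaks were removed. The share of strong peaks was 6.90% with strong meaning a fold of 10 or more, 69.2% when a -log10 q of 10 was required and 57.1% without NOTCH2. The median fold was 7.88 at that q, 3.20 with 50 kb flanks and 7.50 without NOTCH2. The covered share of the windows went from 14.3% to 11.0% at that q, 10.0% at a fold of at least 4, 14.4% with no flank, 9.97% with 50 kb flanks and 13.4% without NOTCH2. With 50 kb flanks the highest fold at NOTCH3 was 7.21. The NOTCH2 domain ranked 2749 when joined within 5 kb and 1000 by summed width. By summed width HES4 ranked 1232 and NRARP 9627, and TRIB2 ranked 4663 when a -log10 q of 10 was required; the cause of the changes in rank was not tested. The number of genes with a peak was 7 with the main settings. It was 6 with a -log10 q of at least 5 or 10, a fold of at least 4, no flank or 10 kb flanks. The number with a peak at the 5′ end was 5, and 6 within 5 kb. All these counts stayed within the margin, which is wide for counts this small. With no flank NRARP had no value, and NOTCH3 had no domain at a -log10 q of 10. No paired analysis was possible because each group held a single library. At 1 library each, neighbouring folds have no replicate check.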

Other observations

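HES proteins, themselves repressors, bind N-box and class C sites, so the same 250-base windows were also searched for CACNAG and CACGNG on both strands, forms that overlap where both read CACGAG. The HES1 window held 3 matches to the N-box form and 4 to the class C form, with CACGAG counted under both at bases -132 to -127 and -58 to -53. NOTCH3 held 1 match to each, at the same bases (-211 to -206), and NRARP 1 to the class C form. Of all 35116 windows, 32.0% held the N-box form and 26.7% the class C form. No window of the 7 held the RUNX form TGTGGT, which stood in 11.0% of all windows. These are matches of letters in one window per gene.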
